A study of Mus musculus with 36 samples.

Results

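The expression of 10 antioxidant genes was followed in the blood of irradiated mice. They were the peroxide-removing enzymes Prdx2, Cat and Gpx1, the superoxide dismutases Sod1 and Sod2, the heme-degrading enzyme Hmox1, the quinone reductase Nqo1, the thioredoxin reductase Txnrd1, and both subunits of glutamate-cysteine ligase, Gclc and Gclm. Every array probe annotated to one of these symbols was taken, 12 probes in all, and all 10 genes passed the filters that left 15085 genes for testing. Gene expression was measured in 36 male C57BL/6J mice, 6 in each of 6 groups, with 1 single-color array per mouse, 7 days after a single exposure. The controls were sham-irradiated, the x-ray group received 3 Gy x-rays, and the 5, 15 and 25% mixed field groups received 3 Gy in all, of which 0.15, 0.45 and 0.75 Gy were neutrons and the rest photons, mainly x-rays. The neutron alone group received 0.75 Gy of neutrons and no x-rays; its labels give the neutron share as 100%, although the source also emits some photons, and it therefore differed from the 25% mixed field in total dose as well as in share. The mice were young adults, how they shared cages or exposure runs is not given in the sources used here, and p-values therefore measure only the spread between these animals. The RNA came from whole blood taken by cardiac puncture, with globin transcripts reduced before labeling.

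Cells dispose of superoxide in steps. Superoxide dismutases turn it into hydrogen peroxide, which catalase, glutathione peroxidases and peroxiredoxins reduce to water, the latter enzymes drawing on glutathione and thioredoxin that are kept reduced with NADPH. NRF2, the transcription factor encoded by Nfe2l2, is held down by Keap1 and, when released, binds antioxidant response elements in genes such as Nqo1, Hmox1, Txnrd1, Gclc and Gclm together with a small MAF partner, while BACH proteins compete for the same elements. In blood, Prdx2, Cat, Gpx1 and Sod1 are best known as abundant proteins of red cells, whose precursors make them before losing the nucleus.

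The letters TGACNNNGC, the core of the antioxidant response element, were looked for on both strands of the RefSeq promoter windows (build GRCm38.p6, 250 bases before and 50 after the start), because the 10 genes bring together antioxidant enzymes and NRF2 targets. Windows were found for 8 of the 10 genes, and those of 3 genes held a match, Sod1, Gclm and Txnrd1, the last in 1 of its 3 windows. Of 32851 mouse promoter windows of the same length, 12.4% held one. Windows for Hmox1 and Gclc were not used here. The 150 bases before the start of these 3 genes are shown, each on the plus strand, with the match in capitals as it reads on that strand, the element itself lying on the opposite strand.
Sod1, chr16:90220612-90220761: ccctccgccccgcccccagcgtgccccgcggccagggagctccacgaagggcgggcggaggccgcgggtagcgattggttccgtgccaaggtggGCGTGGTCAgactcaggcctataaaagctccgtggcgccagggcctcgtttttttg
Gclm, chr3:122245407-122245556: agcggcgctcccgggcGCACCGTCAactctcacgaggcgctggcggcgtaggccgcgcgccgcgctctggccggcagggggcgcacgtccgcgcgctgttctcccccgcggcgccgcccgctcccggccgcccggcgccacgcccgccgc
Txnrd1, chr10:82859056-82859205: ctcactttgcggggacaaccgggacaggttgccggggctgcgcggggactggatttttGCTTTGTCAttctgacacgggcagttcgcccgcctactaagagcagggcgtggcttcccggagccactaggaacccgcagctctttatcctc
A match lay 56 to 48 bases before the start in Sod1, 134 to 126 bases before it in Gclm, and 92 to 84 bases before it in Txnrd1. The absence of a match elsewhere says only that these letters are not in the window.

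The arrays lay on 10 slides scanned in 4 sessions that largely followed the exposures, and between 15569 and 21294 probes per array were well above background. Controls and x-rays were scanned together in the first session, with 5 arrays of each, and the 5 and 15% mixed fields in the second, again with 5 of each. All arrays of the 25% mixed field and of neutron alone fell in the third, and the fourth added 1 array each of the controls, x-rays, 5% and 15%. For the 25% mixed field and neutron alone, session and radiation cannot therefore be told apart in comparisons with the controls or x-rays. As for the tissue, all 19 red cell genes, 9 B-cell genes, 11 T-cell genes, 7 platelet genes and 7 monocyte genes on the array were measurable, and of 13 neutrophil genes only Mpo was not. Genes of hepatocytes were also present, to a degree that differed from mouse to mouse. Over 10 hepatocyte genes, among them Alb, Ttr and Apoa1, the mean log2 level relative to the array median ran from -0.11 to 9.83 (median 5.07) in the controls and from -0.37 to 10.50 (4.48) after x-rays. In the mixed fields it ran 0.07 to 12.28 (10.47) at 5%, 4.64 to 12.74 (5.76) at 15%, and 7.55 to 12.04 (8.68) at 25%, and after neutron alone from -0.23 to 4.91 (0.92). Of the irradiated arrays, 8 lay above every control in this measure, replicate 2 of x-rays, replicates 3, 5 and 6 of the 5%, 2 and 3 of the 15%, and 1 and 4 of the 25% mixed field, and counts against the controls are given with and without these 8 arrays. This marker list was chosen after the data had been seen.

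Relative to the array median, 7 of the 10 genes were higher in irradiated blood in at least 4 of the 5 exposures, and none fell. Each exposure was compared with the 6 controls in limma, and the threshold for a call was an unadjusted p of 0.001 together with an adjusted p of 0.05 (Benjamini-Hochberg, over all 15085 genes). After x-rays 7 of the 10 genes rose and 0 fell, where 12.9% of all genes rose and 16.9% fell. At 5% the counts were 6 and 0 (9.04% and 14% of all genes), at 15% they were 7 and 0 (12.6% and 16.5%), at 25% again 7 and 0 (10.9% and 13.9%), and after neutron alone 6 and 0 (16.1% and 20.5%). The median log2 fold-change of the 10 genes was 1.73, 1.65, 1.78, 1.49 and 1.15 in that order, and that of all genes was -0.11, -0.08, -0.02, -0.12 and -0.12. Without the 8 arrays rich in hepatocyte genes, 7, 7, 7, 7 and 6 of the 10 genes rose. The direction depends on the scale for some genes. With arrays centered on spike-in probes the median of all genes moved to between -2.05 and -1.0. There Prdx2, Sod2, Nqo1 and Sod1 were below the controls after neutron alone, and of these only Sod1 was called. With another background correction (normexp) the differences of Prdx2 and Sod2 after neutron alone and of Prdx2, Sod1, Sod2 and Gclm at 5% were negative, and none of them was called. Relative to the median of all genes, these 7 genes lay above 0 under each scaling, filter, block and weighting in which they were tested, except Sod1 after neutron alone (-0.21 to 0.48). A scaling that shifts a whole array largely cancels when that median is subtracted. These relative values therefore cannot decide between such scalings, and the turns with spike-in centring stand. Gpx1 was not among the genes tested with spike-in centring, with quantile normalization or in the deposited table, nor Prdx2 in the deposited table. In the controls 5 of the 10 genes, Prdx2, Cat, Gpx1, Sod1 and Sod2, were among the brightest 10% of genes, of which 34.5, 20.3, 32.3, 25.8 and 34.0% rose in the 5 exposures. These comparisons share the same control arrays and are not independent of each other. In bulk blood, fewer cells of a type and less RNA per cell cannot be told apart.

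**Figure D1:**
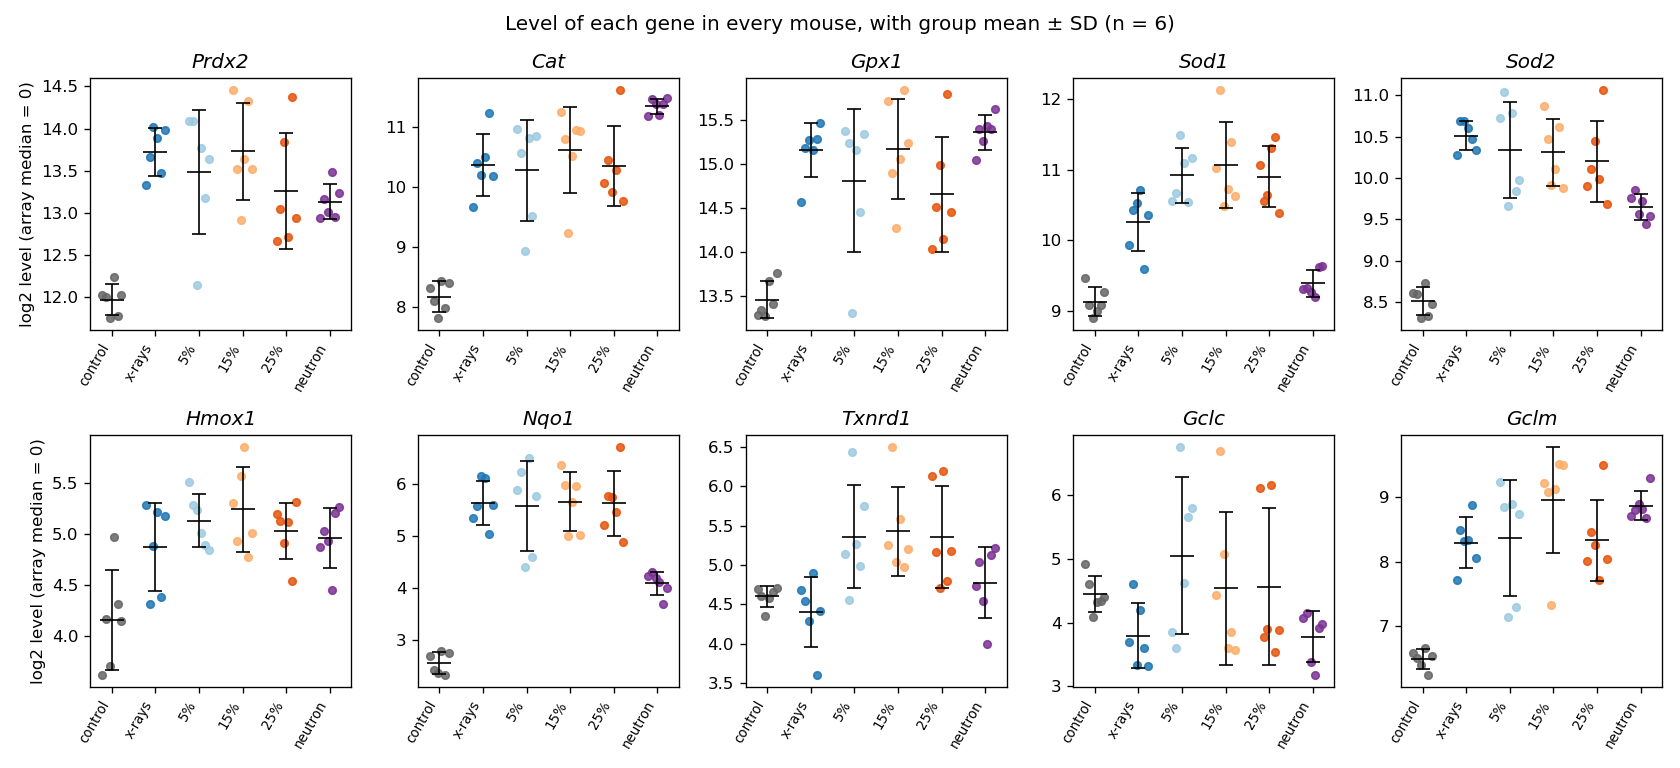
Log2 level of each of the 10 genes relative to the array median (y axis, own scale per gene) in the 6 groups (x axis), with 1 point per mouse and the group mean ± SD (n = 6) as bars. Cat, Sod2, Nqo1 and Gclm lay above every control in each irradiated mouse, Sod1 did so after x-rays as in the mixed fields but not after neutron alone, and Gclc spread widely in the mixed fields.

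Prdx2, the peroxiredoxin of red cells, rose in all 5 exposures (probe at chr8:87498153-87498212, mm9). Its log2 level, relative to the array median as for all levels here, ran from 11.75 to 12.25 in the controls with a median of 12.02. It ran from 13.33 to 14.02 (median 13.78) after x-rays, 12.15 to 14.09 (13.71) at 5%, 12.92 to 14.46 (13.58) at 15%, 12.66 to 14.37 (12.99) at 25%, and from 12.95 to 13.48 (13.09) after neutron alone. Only 1 of the 30 irradiated mice, replicate 3 of the 5% mixed field, overlapped with the controls. The log2 fold-change was 1.75 ± 0.18 (SE) after x-rays, a 3.37-fold rise (limma, adjusted p = 9.64e-06), and 1.51 ± 0.31 at 5%, 1.76 ± 0.26 at 15%, 1.29 ± 0.29 at 25% (adjusted p = 0.00241) and 1.16 ± 0.14 after neutron alone. The call at 25% was lost in 6 of the 12 fits that left out 1 array (controls 1, 2, 3, 5 or 6, or replicate 3 of the 25% group), was kept at 1.58 without the 2 arrays rich in hepatocyte genes, and was lost with the hepatocyte level as a covariate (1.46, adjusted p = 0.0089). With quantile normalization Prdx2 was 0.73, 0.60, 0.64 and 0.22 above the controls from 5% to neutron alone and was called in none of these 4 exposures.

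Cat, the catalase of peroxisomes and red cells, had, by its brighter probe, the largest rise of the 10 genes after neutron alone (probe at chr2:103294487-103294546, mm9). Its brighter probe ran from 7.80 to 8.43 (median 8.21) in the controls and from 11.18 to 11.48 (11.38) after neutron alone. The levels were 9.67 to 11.23 (10.30) after x-rays, 8.94 to 10.97 (10.69) at 5%, 9.23 to 11.25 (10.86) at 15% and 9.77 to 11.62 (10.17) at 25%, so that every irradiated mouse exceeded every control. Expressed as log2 fold-change, this was 2.2 ± 0.25 (4.59-fold), 2.11 ± 0.35, 2.45 ± 0.31, 2.18 ± 0.29 and, after neutron alone, 3.18 ± 0.14, or 9.07-fold (limma, adjusted p = 4.24e-08). A second probe for Cat, without a position in the array annotation, also rose in all 5 exposures, by 2.24, 1.71, 1.48, 1.43 and 2.23 on the log2 scale, among 21484 probes tested, and its rise after neutron alone was below that of Gclm. In the authors' deposited log2 values Cat was 1.13, 0.76 and 0.92 above the controls at 5, 15 and 25% and was called in none of them, while after x-rays and neutron alone it was called at 1.81 and 1.85.

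Gpx1, which reduces peroxides with glutathione, rose in 4 exposures (probe at chr9:108242276-108242335, mm9). Levels were 13.27 to 13.76 (median 13.37) in the controls, 14.57 to 15.46 (15.22) after x-rays, 13.31 to 15.37 (15.20) at 5%, 14.27 to 15.84 (15.14) at 15%, 14.03 to 15.79 (14.48) at 25% and 15.04 to 15.62 (15.39) after neutron alone. The 5% group overlapped with the controls through replicate 3 alone, and the other exposures did not overlap with them. The log2 fold-change was 1.70 ± 0.19 after x-rays (3.25-fold), 1.71 ± 0.27 at 15%, 1.20 ± 0.28 at 25% and 1.90 ± 0.14 after neutron alone (3.74-fold, limma adjusted p = 3.17e-07). At 5% it was 1.36 ± 0.33 with an adjusted p of 0.00462 and an unadjusted p of 0.00109, which missed the threshold, and 1.65 without replicate 3, which was called (adjusted p = 7.18e-05). The call at 25% was lost in 9 of the 12 fits that left out 1 array (any control, or replicate 2, 3 or 6 of the 25% group). The spot was saturated on 3 arrays, replicate 6 of x-rays, 3 of 15% and 5 of 25%, whose levels are lower bounds.

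Sod1, the copper-zinc superoxide dismutase of the cytosol, rose in 4 of the 5 exposures (probe at chr16:90226509-90226568, mm9). Its level lay between 8.89 and 9.46 (median 9.08) in the controls and between 9.19 and 9.63 (9.31) after neutron alone, where only 2 of 6 mice exceeded every control. After x-rays it lay between 9.59 and 10.71 (10.39), and at 5, 15 and 25% between 10.54 and 11.49 (10.88), 10.48 and 12.13 (10.88), and 10.39 and 11.46 (10.85), all above every control. Sod1 rose after x-rays (log2 fold-change 1.13 ± 0.22, 2.19-fold, limma adjusted p = 0.000831) and at 5% (1.79 ± 0.22), 15% (1.94 ± 0.28) and 25% (1.77 ± 0.22). The x-ray call was lost with quantile normalization (0.63), in the deposited log2 values (0.56), with spike-in centring (0.15) and with normexp (0.24), and also with the replicate number (adjusted p = 0.00679) or the slide (adjusted p = 0.0363) as a block. After neutron alone the difference was 0.26 (95% interval -0.04 to 0.56, adjusted p = 0.125).

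Sod2, the manganese superoxide dismutase of mitochondria, rose in all 5 exposures (probe at chr17:13208074-13208133, mm9). Levels were 8.30 to 8.73 (median 8.54) in the controls, 10.28 to 10.69 (10.53) after x-rays, 9.67 to 11.04 (10.35) at 5%, 9.87 to 10.87 (10.28) at 15%, 9.69 to 11.06 (10.05) at 25% and 9.44 to 9.85 (9.64) after neutron alone, with no overlap with the controls. The log2 fold-change was 2.00 ± 0.16 after x-rays (4.00-fold, limma adjusted p = 1.81e-06), 1.83 ± 0.27, 1.80 ± 0.22 and 1.69 ± 0.23 in the mixed fields, and 1.14 ± 0.13 after neutron alone (2.2-fold). The last was 0.63 and not called in the deposited log2 values.

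Hmox1, which opens the heme ring and is a classic NRF2 and BACH1 target (brighter probe at chr8:77624207-77624266, the second at chr8:77620797-77620856, mm9), was higher on average in all 5 exposures but passed the threshold in none. Its brighter probe ran from 3.61 to 4.98 (median 4.16) in the controls, 4.32 to 5.28 (5.03) after x-rays, 4.84 to 5.52 (5.13) at 5%, 4.77 to 5.86 (5.16) at 15%, 4.54 to 5.31 (5.12) at 25% and from 4.45 to 5.27 (4.99) after neutron alone. The overlap rested mainly on 1 control, replicate 4, at 4.98, since the next control lay at 4.32. The log2 differences were 0.72 (95% interval 0.14 to 1.30), 0.98 (0.43 to 1.52), 1.09 (0.50 to 1.67), 0.88 (0.35 to 1.40) and 0.81 (0.32 to 1.30), with adjusted p (limma) of 0.034, 0.00652, 0.00466, 0.00952 and 0.00768. Without that control, Hmox1 was called in the 3 mixed fields and after neutron alone, at 1.14, 1.25, 1.04 and 0.97. The second probe gave 1.01, 0.30, 0.09, 0.21 and 0.72 and was called in none, so that the probes differed most in the mixed fields.

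Nqo1, the quinone reductase often used to read out NRF2 activity (probe at chr8:109912440-109912499, mm9), had the largest rise of the 10 genes after x-rays as in the mixed fields. Its level ran from 2.31 to 2.79 (median 2.56) in the controls. Levels were 5.04 to 6.15 (5.59) after x-rays, 4.41 to 6.51 (5.83) at 5%, 4.99 to 6.38 (5.81) at 15%, 4.88 to 6.72 (5.60) at 25% and 3.69 to 4.30 (4.15) after neutron alone. Every irradiated mouse exceeded every control, and every mouse of the neutron alone group lay below every mouse of the other irradiated groups. The rise was 8.50-fold after x-rays (log2 fold-change 3.09 ± 0.22, limma adjusted p = 7.14e-07), 8.11-fold at 5% (3.02 ± 0.35), 8.64-fold at 15% (3.11 ± 0.26), 8.45-fold at 25% (3.08 ± 0.27) and 2.89-fold after neutron alone (1.53 ± 0.15, adjusted p = 2.22e-06). Among the 15085 genes Nqo1 ranked 63 by rise after x-rays and 1294 after neutron alone.

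Txnrd1, the cytosolic enzyme that keeps thioredoxin reduced, was called in no exposure (probe at chr10:82360230-82360289, mm9). It ran from 4.35 to 4.71 (median 4.63) in the controls, 3.59 to 4.90 (4.48) after x-rays, 4.56 to 6.44 (5.21) at 5%, 4.98 to 6.50 (5.23) at 15%, 4.70 to 6.19 (5.17) at 25% and from 4.00 to 5.21 (4.89) after neutron alone. The 15% group did not overlap with the controls. The log2 difference from the controls was -0.20 (95% interval -0.66 to 0.27), 0.76 (0.15 to 1.37), 0.83 (0.28 to 1.38), 0.76 (0.18 to 1.35) and 0.18 (-0.25 to 0.60). In the mixed fields the adjusted p (limma) was 0.0417, 0.0158 and 0.0335, short of the threshold on the unadjusted p. Without the arrays rich in hepatocyte genes the differences in the mixed fields were 0.39, 0.66 and 0.36.

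Gclc and Gclm encode the catalytic and the modifier subunit of the enzyme that starts glutathione synthesis, and the modifier alone passed the threshold. The Gclc probe lies at chr9:77641296-77641355 (mm9), and the array annotation gives no position for that of Gclm. Gclm ran from 6.24 to 6.67 (median 6.52) in the controls, 7.71 to 8.88 (8.33) after x-rays, 7.15 to 9.24 (8.80) at 5%, 7.33 to 9.51 (9.17) at 15%, 7.72 to 9.50 (8.15) at 25% and from 8.68 to 9.30 (8.82) after neutron alone, with no overlap with the controls. Its log2 fold-change was 1.81 ± 0.20 (3.50-fold), 1.87 ± 0.35, 2.47 ± 0.33 (5.55-fold), 1.84 ± 0.27 and 2.38 ± 0.14 (5.20-fold, limma adjusted p = 7.15e-08). The level of Gclc ran from 4.08 to 4.91 (median 4.38) in the controls, 3.32 to 4.60 (3.65) after x-rays, 3.60 to 6.75 (5.14) at 5%, 3.57 to 6.69 (4.14) at 15%, 3.54 to 6.16 (3.89) at 25% and from 3.17 to 4.15 (3.95) after neutron alone. Its differences were -0.65 (95% interval -1.19 to -0.12, limma adjusted p = 0.0369), 0.60 (-0.39 to 1.60), 0.09 (-0.89 to 1.07), 0.12 (-0.87 to 1.10) and -0.66 (-1.10 to -0.23, adjusted p = 0.012), none of them called. With spike-in centring, where all genes shifted down, Gclc was called lower after x-rays (-1.63, adjusted p = 0.0015) and after neutron alone (-2.54, adjusted p = 5.09e-07).

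The spread of Gclc in the mixed fields went with hepatocyte genes, and within groups Gclc also went inversely with red cell genes. On the 8 arrays rich in these genes Gclc lay between 4.60 and 6.75, and on the other 22 irradiated arrays between 3.17 and 4.63. Without the 8 arrays the difference of Gclc from the controls was -0.81, -0.42, -0.58, -0.67 and -0.66 from x-rays to neutron alone, so that it turned negative in the 3 mixed fields, and it was called in none. Over the 36 arrays, the correlation of Gclc with the mean hepatocyte level was 0.67, and after removal of the group means it was 0.62, the highest of the 10 genes, followed by Sod1 (0.35) and Txnrd1 (0.30). For the other 7 genes it lay between -0.38 and -0.18 after removal of the group means. All these points share the median centring of their arrays.

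**Figure D2:**
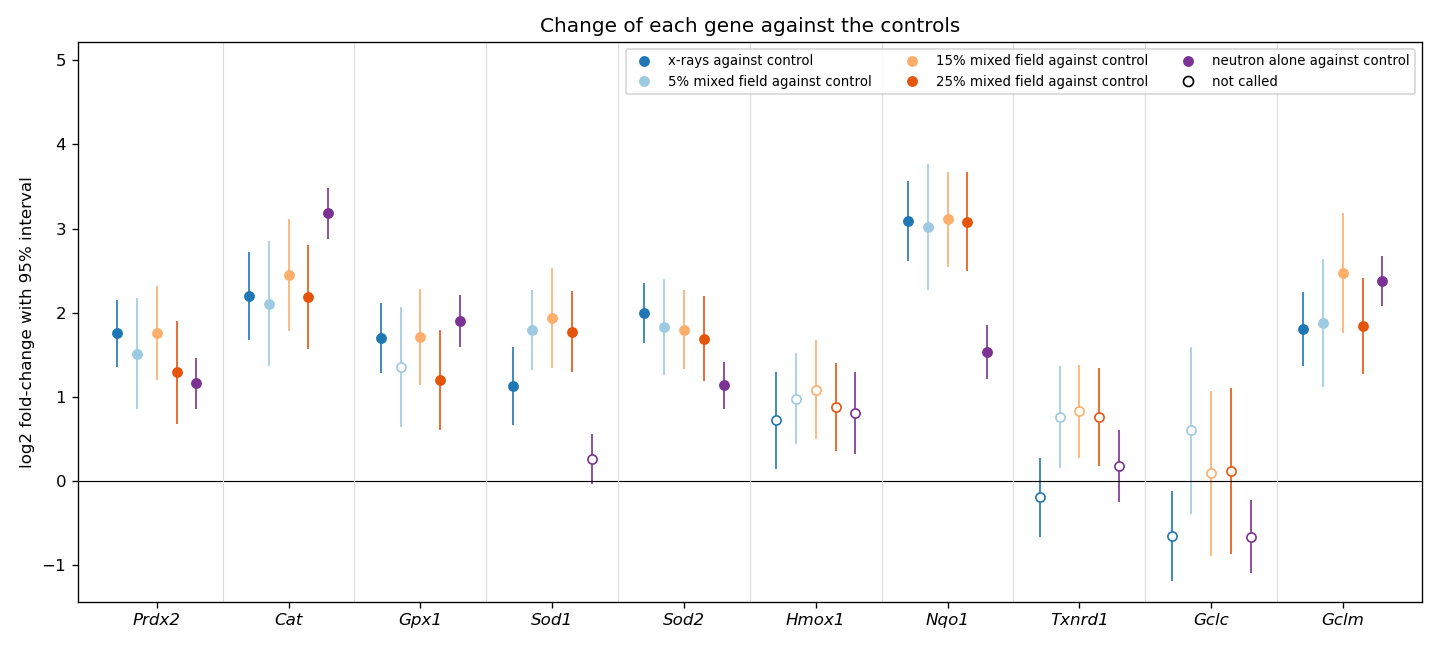
Log2 fold-change against the controls on the median-centered scale (y axis) with its 95% interval for each of the 10 genes (x axis) in the 5 exposures, filled where called and open where not. On this scale 7 genes lie above 0 with a call in at least 4 exposures. Prdx2, Sod1, Sod2 and Nqo1 have their lowest value and Cat, by its brighter probe, its highest after neutron alone. The intervals of Gclc are widest in the mixed fields.

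In each exposure, 6 or 7 of the 10 genes rose together with genes of red cells and reticulocytes. Of the 19 red cell genes tested, 15 rose after x-rays, 14 at 5%, 15 at 15%, 12 at 25% and 18 after neutron alone, and 0 fell, with median log2 fold-changes of 2.63, 2.04, 2.29, 2.01 and 1.80. Ahsp, the chaperone of alpha globin, rose by 2.59 to 4.93, and Klf1, the erythroid transcription factor, by 1.59 to 2.73. The summed level of the 19 genes, in units of the array median, ran from 63857 to 74772 in the controls and from 100899 to 240084 after x-rays. It ran 68491 to 215583 at 5%, 76231 to 280349 at 15%, 72914 to 235712 at 25% and from 155909 to 229480 after neutron alone. No red cell marker was at background. Over the 36 arrays the correlation with the mean log2 level of these 19 genes was 0.96 for Prdx2, 0.94 for Sod2, 0.91 for Gpx1 and for Nqo1, 0.90 for Gclm, 0.84 for Cat and 0.61 for Sod1, against 0.52 for Hmox1, 0.04 for Txnrd1 and -0.30 for Gclc. After removal of the group means it was 0.94 for Prdx2, 0.95 for Gpx1, 0.85 for Gclm, 0.82 for Sod2, 0.81 for Nqo1 and for Cat, and 0.06 for Sod1. For the genes not called it was -0.20 for Hmox1, -0.54 for Txnrd1 and -0.65 for Gclc. The part of the red cell genes in these rises was not tested.

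**Figure D3:**
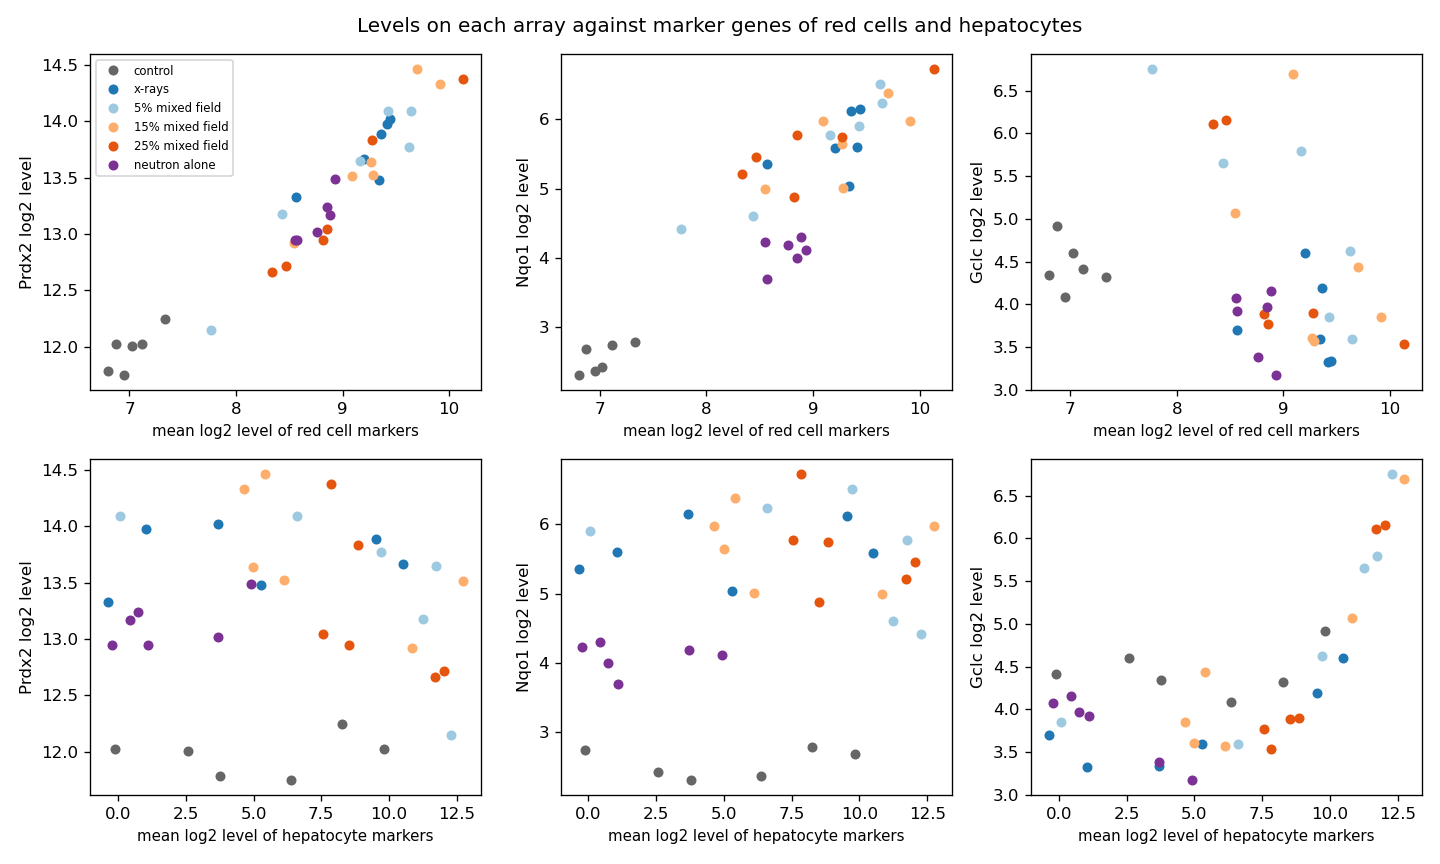
Log2 level of Prdx2, Nqo1 and Gclc (y axes) on each of the 36 arrays against the mean log2 level of 19 red cell genes (upper row) and of 10 hepatocyte genes (lower row), colored by group. Prdx2 follows the red cell genes across all groups, Nqo1 is lower after neutron alone than in other irradiated mice at like red cell levels, and Gclc lies between 4.60 and 6.75 on the 8 irradiated arrays richest in hepatocyte genes.

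Of the other cell types, the B-cell genes fell in every exposure. All 9 B-cell genes fell after x-rays and in each mixed field and 8 fell after neutron alone, with a median log2 fold-change of -4.86 after x-rays and -1.32 after neutron alone. Of 11 T-cell genes 5, 5, 4, 3 and 1 fell and 0 rose. Of 12 neutrophil genes 4, 3, 4, 4 and 4 rose and 0, 0, 1, 1 and 1 fell. Of 7 monocyte genes 0, 0, 0, 0 and 2 rose and 0 fell, and of 7 platelet genes 0, 0, 1, 2 and 1 rose. Beside these counts, 9.04 to 16.1% of all genes rose and 13.9 to 20.5% fell. The monocyte and platelet counts, and the T-cell count after neutron alone, are too small to be read as a change beyond these shares. Over the 36 arrays Hmox1 correlated with the mean level of monocyte genes at 0.68, and the other 9 genes between -0.24 and 0.19. Nqo1 had the strongest inverse correlation with the B-cell genes, at -0.92. What these cell types contribute to the 10 genes was not tested.

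The 4 regulators of NRF2 that passed the threshold in at least 3 exposures did not move one way. Of 12 listed genes, 7 were tested, and 3, 2, 3, 1 and 2 rose while 3, 1, 2, 1 and 2 fell, in the order x-rays, 5, 15, 25% and neutron alone. Of all genes 9.04 to 16.1% rose and 13.9 to 20.5% fell, so counts of 1 or 2 among 7 are not read as a change of the list. Bach2, a BACH protein of lymphocytes, fell by 3.74 on the log2 scale after x-rays, by 3.68, 4.19 and 2.89 in the mixed fields and by 1.54 after neutron alone. Keap1 fell by 1.18 after x-rays, by 1.16 at 15% and by 1.25 after neutron alone, and Sqstm1, which binds KEAP1 and marks cargo for autophagy, rose in all 5 exposures, by 0.83 to 1.89. Mafg, a small MAF partner, rose in 4 exposures by 0.89 to 1.24. Nfe2l2 itself was called in no exposure, with log2 differences of -0.54, -0.81, -0.94, -0.59 and -0.61 and adjusted p (limma) from 0.00896 to 0.0453. The median of the list was -0.54, -0.14, -0.31, -0.32 and -0.44.

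In the thioredoxin and peroxiredoxin system, 15 of 18 genes were tested, of which 5, 5, 7, 6 and 4 rose and 2, 1, 0, 0 and 2 fell. Beside these counts, 9.04 to 16.1% of all genes rose and 13.9 to 20.5% fell. Glrx5, the mitochondrial glutaredoxin needed for iron-sulfur clusters, rose by 2.12 to 2.99, Prdx3, the mitochondrial peroxiredoxin, by 1.03 to 2.23, and Txnrd2, the mitochondrial thioredoxin reductase, by 1.11 to 2.10, each in all 5 exposures. Glrx2, another mitochondrial glutaredoxin, rose by 0.82 to 1.87 in all 5. Txn1 rose in the mixed fields by 1.33, 1.47 and 1.33, and was 0.66 after x-rays and 0.08 after neutron alone, not called. The list median was 0.36, 0.77, 0.62, 0.88 and 0.06.

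Of 18 glutathione genes 15 were tested, and 6, 7, 7, 7 and 3 rose while 1, 1, 0, 0 and 1 fell. The shares of all genes were again 9.04 to 16.1% for a rise and 13.9 to 20.5% for a fall. Mgst3, a microsomal glutathione transferase, rose by 3.50 after x-rays and by 0.99 after neutron alone. Hagh and Slc3a2, a hydrolase of the glyoxalase pathway and a subunit of the cystine transporter, rose in all 5 exposures, by 1.51 to 1.90 and by 1.22 to 1.74. Glo1 and Gpx4, the glyoxalase and the peroxidase for membrane lipids, rose after x-rays as in the mixed fields by 2.31 to 2.73 and by 1.58 to 1.98, whereas after neutron alone the differences were 0.35 and 0.31 and were not called. Gss, the enzyme after glutamate-cysteine ligase, rose in the mixed fields by 1.77, 1.65 and 2.09. The list median was 0.86, 1.58, 1.49, 1.51 and 0.05.

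Among 5 of 8 genes of superoxide handling tested, 1 rose in each exposure and 0, 2, 0, 1 and 1 fell, with list medians of -0.46, -0.05, 0.43, 0.03 and -0.55. Ccs, the chaperone that loads copper into SOD1, rose by 2.02, 2.59, 2.69, 2.51 and 0.79, and Ncf1, a subunit of the phagocyte NADPH oxidase, fell by 1.66 at 5%, 1.29 at 25% and 0.94 after neutron alone. Of 10 NADPH supply genes 5 were tested, and Taldo1, the transaldolase of the pentose phosphate pathway, rose after x-rays, at 15% and after neutron alone by 1.18, 1.39 and 0.79. No other of these genes was called, and the list median was 0.25, 1.16, 0.98, 0.77 and 0.47. Of 7 genes of heme breakdown and iron storage 5 were tested, and 3, 2, 3, 3 and 4 rose and 0 fell. Blvrb, the biliverdin reductase of red cells, rose by 2.02 to 3.10, Fth1, the ferritin heavy chain, by 1.12 to 1.66, and Slc48a1, a heme transporter, by 1.17 to 1.91 in the 4 exposures other than 5%. The list median was 1.24, 1.26, 1.64, 1.12 and 1.75. In these comparisons 9.04 to 16.1% of all genes rose and 13.9 to 20.5% fell. Counts of 1 or 2 among 5 genes are therefore not read as a change of a list.

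Of 12 other NRF2 targets 10 were tested, and 2, 2, 3, 1 and 2 rose while 0, 0, 0, 0 and 1 fell, with list medians of 0.08, 0.95, 0.90, 0.73 and -0.21. Trib3, a pseudokinase also driven by ATF4 and CHOP, rose after x-rays as in the mixed fields by 1.98 to 2.48 and was 0.01 after neutron alone. Aldh3a1, an aldehyde dehydrogenase, rose after x-rays, at 15% and after neutron alone by 1.22, 1.5 and 1.36, and Cbr1, a carbonyl reductase, by 0.80, 0.97 and 1.03 at 5%, 15% and after neutron alone. The shares of these lists stand beside the 9.04 to 16.1% of all genes that rose and the 13.9 to 20.5% that fell. The counts of the other NRF2 targets are too small to be read as a change beyond these shares.

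**Figure D4:**
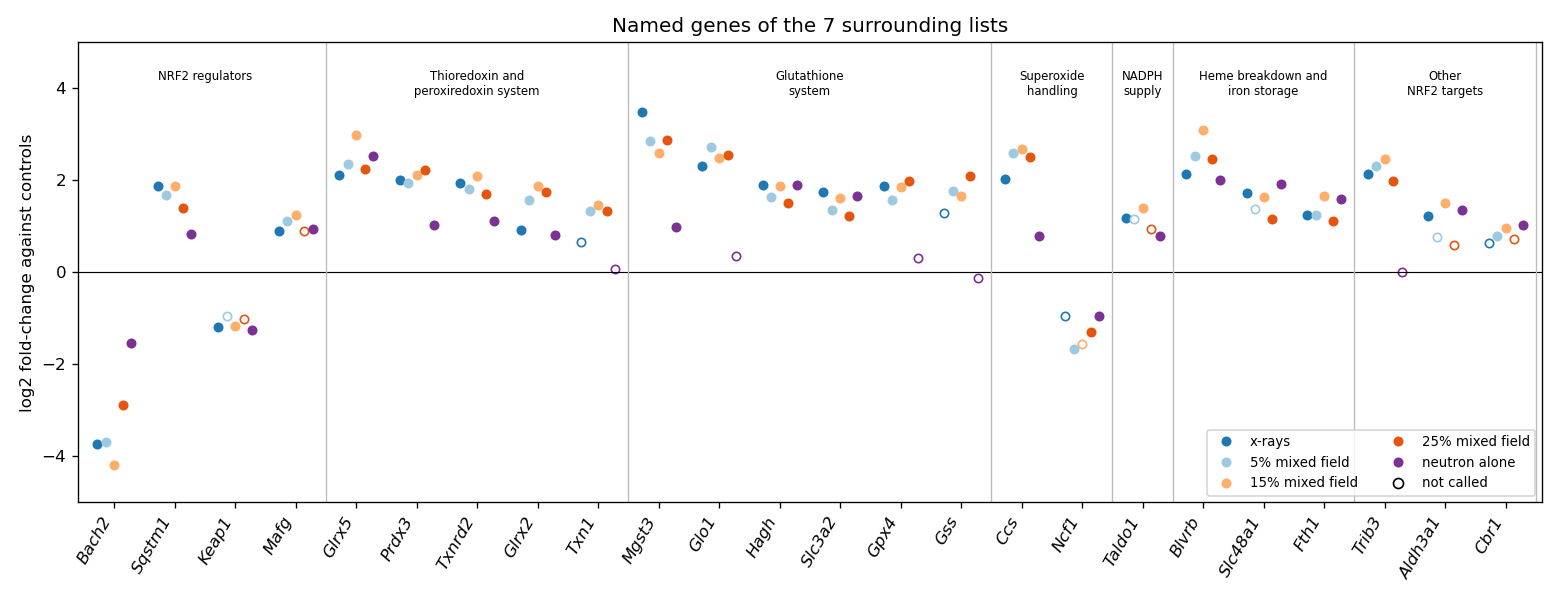
Log2 fold-change against the controls (y axis) of the genes named from the 7 surrounding lists (x axis), 1 point per exposure, filled where called and open where not. Most points lie above 0, Bach2, Keap1 and Ncf1 lie below it, and Txn1, Glo1, Gpx4, Gss and Trib3 lie near 0 after neutron alone.

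The irradiated groups were then compared with each other. Only 1 array each of the 5 and 15% mixed fields shared a scan session with an x-ray array, and none of the 25% mixed field or of neutron alone did. In comparisons with x-rays the neutron share can therefore hardly be told apart from the session. For neutron alone (0.75 Gy against 3 Gy) it cannot be told apart from the dose either. At 5, 15 and 25% none of the 10 genes was called against x-rays, where 0%, 4.09% and 2.61% of all genes were called (limma). At 5% no gene at all was called. An unadjusted p (limma) below 0.05 was found for 3508, 4245 and 4429 of the 15085 genes at 5, 15 and 25%. It was found for 3, 2 and 2 of the 10 genes, which therefore did not stand out by this count. For Nqo1 the 95% interval of the difference from x-rays on the log2 scale was -0.90 to 0.76 at 5%, -0.65 to 0.69 at 15% and -0.69 to 0.68 at 25%. Sod1 was higher than after x-rays by 0.66 (0.05 to 1.27), 0.81 (0.12 to 1.5) and 0.65 (0.05 to 1.24), with adjusted p of 0.186, 0.12 and 0.143. On the 8 irradiated arrays rich in hepatocyte genes Sod1 lay between 10.43 and 12.13. On the other 22 irradiated arrays, those of neutron alone included, it lay between 9.19 and 11.46. Txnrd1 differed by 0.96 (0.23 to 1.68), 1.02 (0.34 to 1.71) and 0.96 (0.26 to 1.66), with adjusted p of 0.131, 0.0553 and 0.0856, and its 15% group did not overlap with x-rays. Without the arrays rich in hepatocyte genes the Txnrd1 differences were 0.62, 0.88 and 0.59.

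Neutron alone differed from x-rays in 3 of the 10 genes, where 12.9% of all genes were called. Nqo1 was 2.94-fold lower (log2 difference -1.56 ± 0.22, limma adjusted p = 0.000323) and Sod2 1.82-fold lower (-0.86 ± 0.16, adjusted p = 0.00212), and in both genes all 6 neutron alone mice lay below all 6 x-ray mice. The Sod2 call was lost with the replicate block (adjusted p = 0.0171), with quantile normalization (-0.68, adjusted p = 0.009) and with normexp (-1.65, adjusted p = 0.69), and the Nqo1 call with normexp (-1.55, adjusted p = 0.678). Cat was 1.98-fold higher by its brighter probe (0.98 ± 0.23, adjusted p = 0.00736), with overlap between the groups. That call was lost in 11 of the 12 fits that left out 1 array, all but the one without replicate 5 of x-rays, and the second Cat probe gave a difference of -0.01 (adjusted p = 0.977), so that the probes disagree. In the deposited log2 values the Cat difference was 0.04. Sod1 was lower by 0.87 (95% interval -1.33 to -0.41, adjusted p = 0.00909), short of the threshold on the unadjusted p, and was called without replicate 1 or replicate 5 of x-rays. Prdx2 was lower by 0.59 (-1.0 to -0.19, adjusted p = 0.0317), and Gclm was 0.57 higher (0.11 to 1.03, adjusted p = 0.0612), neither of them called. In the same comparison 7 of the 19 red cell genes were lower and 7 of the 9 B-cell genes higher after neutron alone.

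The 25% mixed field and neutron alone held the same 0.75 Gy of neutrons, with and without x-rays, and were scanned in the same session. Neutron alone was lower in Nqo1 (-1.55 ± 0.27, limma adjusted p = 0.00121) and in Sod1 (-1.51 ± 0.22, adjusted p = 0.00032), where 11.4% of all genes were called, and in neither gene did the groups overlap. Cat was 1.00 higher after neutron alone (95% interval 0.40 to 1.59, adjusted p = 0.0185) and Gpx1 0.70 higher (0.11 to 1.30, adjusted p = 0.0737), neither of them called. Without replicate 5 of the 25% mixed field, the highest of its group in both genes, they were called at 1.25 and 0.93. The hepatocyte level did not overlap between the 2 groups, and without the 2 richest arrays the differences were -1.70 for Nqo1 and -1.37 for Sod1, both called. Of the red cell genes 2 of 19 were lower and of the B-cell genes 8 of 9 higher after neutron alone. With the hepatocyte level as a covariate neither gene was called (-2.07, adjusted p = 0.143 for Nqo1, and -1.36, adjusted p = 0.279 for Sod1).

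**Figure D5:**
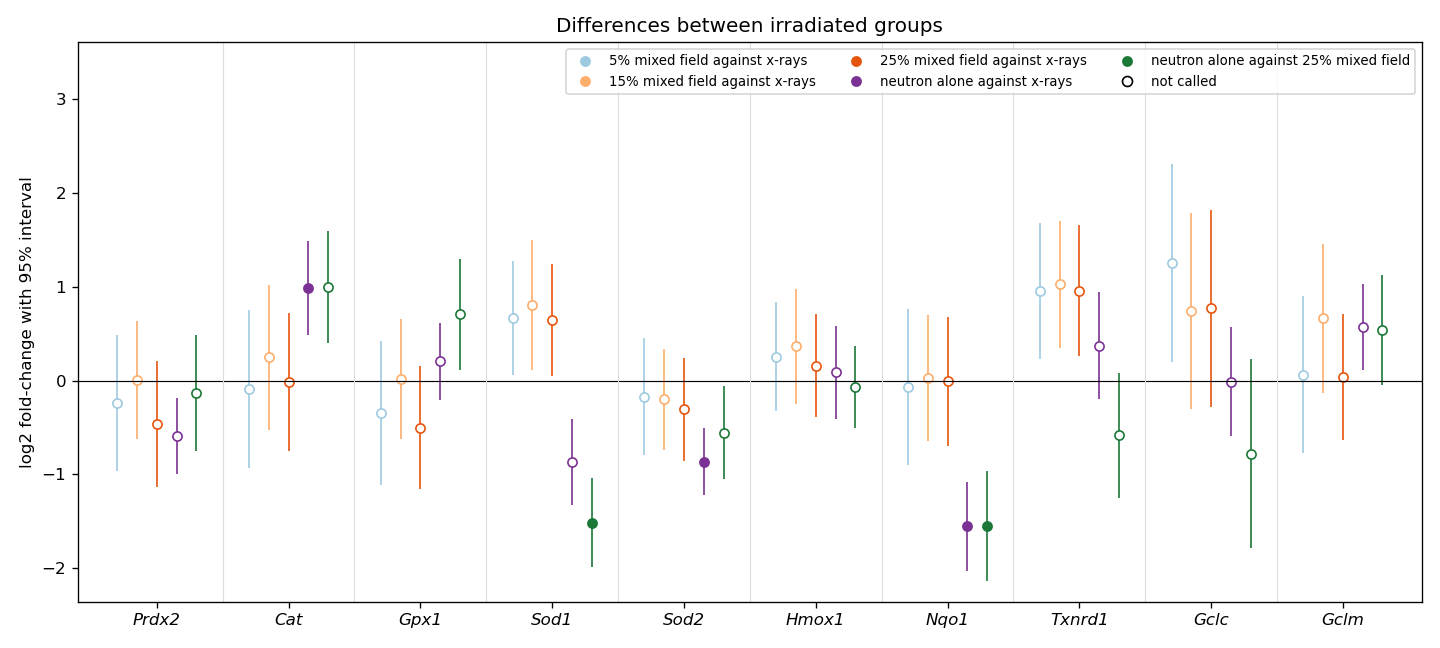
Log2 difference between irradiated groups (y axis) with its 95% interval for each of the 10 genes (x axis) in 5 comparisons, filled where called and open where not. Nqo1 and Sod2 lie below 0 and Cat, by its brighter probe, above it in neutron alone against x-rays. Nqo1 and Sod1 lie below 0 in neutron alone against the 25% mixed field. None of the mixed fields differs from x-rays by a called gene among the 10.

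The 6 groups were ordered by mean level for each gene and neighbors compared with exact two-sided permutation tests, 50 pairs in all, of which 9 had an adjusted p below 0.05. For Prdx2 the order was control, neutron alone, 25%, 5%, x-rays and 15%, and only the step from control to neutron alone was larger than the spread (exact permutation p = 0.00216, the smallest that groups of this size allow, adjusted p = 0.0155). The lowest step was likewise the only one past the threshold for Gpx1, from control to 25%, for Sod2, from control to neutron alone, and for Gclm, from control to x-rays. Cat, by its brighter probe, had a second step, from 15% to neutron alone (exact permutation p = 0.00649, adjusted p = 0.0361). On its second probe, which was not tested in this way, the mean was 9.02 at 15%, 9.78 after x-rays and 9.77 after neutron alone. Neutron alone was thus not the highest group on that probe. For Nqo1 there were steps from control to neutron alone and from neutron alone to 5%, each at the smallest p, and 5%, 25%, x-rays and 15% followed without a step beyond their spread. For Sod1 the step from control to neutron alone was within the spread (exact permutation p = 0.0519, adjusted p = 0.186), that from neutron alone to x-rays was not (adjusted p = 0.0361), and the mixed fields followed. No neighbors differed beyond their spread for Hmox1, Txnrd1 and Gclc. Only neighbors in the order of the means were tested, so a change spread over several small steps can be missed. Neutron alone shared a scan session with the 25% mixed field only, so each step past the threshold to or from it crosses sessions.

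Within the first scan session, which held 5 control and 5 x-ray arrays, the x-ray difference was 3.06 for Nqo1, 2.16 for Cat, 1.99 for Sod2, 1.84 for Gclm, 1.66 for Prdx2, 1.60 for Gpx1 and 1.06 for Sod1 on the log2 scale. In the fourth session, with 1 array per group, Nqo1 was 3.23 above the control after x-rays, 2.24 at 5% and 2.63 at 15%, and all 7 of these genes were above the control in all 3 exposures there. For 5 and 15% no other within-session value against the controls can be had. Both of these arrays, replicate 5 of the 5% and replicate 3 of the 15% mixed field, were among those rich in hepatocyte genes.

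For each gene, the 3 genes with the most similar pattern over the 36 arrays were found among the 15085 by Pearson correlation of the log2 levels. They were Pithd1, Mtr and Cmas for Prdx2 (0.96 to 0.97), Slc48a1, Slc25a37 and a transcript without a symbol for Gpx1 (0.97 to 0.98), and Kel, Gm38485 and Nipa1 for Sod2 (0.98). Cat was closest to a probe without a gene symbol, Ap3m1 and Cd24a (0.97), Nqo1 to 3110002H16Rik, Snrnp25 and Cntf (0.97 to 0.98), and Gclm to Memo1, Vangl1 and a transcript without a symbol (0.98). Kel, the Kell blood group protein, and Slc25a37, the mitochondrial iron importer of red cell precursors, are known from red cells. Sod1 was closest to a pair of unnamed probes and Abcg2 (0.97), Txnrd1 to Hspa5, Mrpl51 and Mfn1 (0.96 to 0.97), Gclc to Insig2, Ebpl and Rcl1 (0.95), and Hmox1, the least matched, to 5430435G22Rik, Fam129b and Tnfrsf21 (0.80 to 0.85). Among the 10 genes themselves, the highest correlations were 0.96 for Sod2 with Nqo1 and 0.95 for Cat with Gclm, and Txnrd1 and Gclc correlated at 0.76, more than either did with any other of the 10.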

How the data were processed

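Whole-blood RNA of 36 mice was hybridized to Agilent mouse 4x44K v2 single-color arrays. Per the file headers the deposited intensity values are processed signals, background-corrected with Agilent Feature Extraction (12.0.2 in the submitters' processing notes). The authors also deposited normalized log2 values for the series, which served only as an alternative, and 0 columns were left unmapped. Processed signals were log2-transformed without non-uniform spots and centered on each array's median. Probes failing background on 25% or more of the arrays, or without a 1.5-fold deviation on at least 20% of them, were removed, which took 39429 probes to 21484 and 17963, and the brightest probe per gene was kept (15085 genes). Each comparison was fitted on its 12 arrays in limma, in place of the random variance test of the methods, and a call required an unadjusted p under 0.001 and an adjusted p (Benjamini-Hochberg) under 0.05. The fitting code was tested on simulated data. Groups came from the sample titles. The number of arrays limits the precision. Named genes were the 10 genes, list genes called in at least 3 of 5 comparisons with controls (up to 6 per list, largest change first), and for each of the 10 the 3 best correlated genes. Members and lists were chosen with earlier results of these data known; the hepatocyte list and its 2 alternatives were chosen after seeing the data, as were Nfe2l2, Ahsp and Klf1 for naming. Same-numbered arrays deviated with a mean correlation of 0.0375 over 90 pairs, against -0.00628 over 450 other pairs, so that the numbers do not pair the mice. Alternatives covered scaling, background correction, filters, probe choice, blocks, weights and left-out arrays. R 4.3.3, limma 3.58.1, the data.table package (version 1.17.8), Python 3.11.15, numpy 2.4.6, pandas 2.3.3 and matplotlib 3.10.9 were used.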

Additional observations from a re-analysis of the deposited data

Results flagged for a closer look

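Within groups of 6 mice, a highest or lowest value standing apart by Dixon's criterion was found in 7 of 72 combinations of probe and group, where chance gives about 1 in 20. Gclm stood apart at 15% through replicate 3, the lowest at 7.33, and after neutron alone through replicate 6, the highest at 9.30. Cat stood apart at 15% through the same replicate 3, at 9.23, and at 25% through replicate 5, the highest at 11.62. Replicate 3 of the 15% mixed field was also among the arrays rich in hepatocyte genes. Gpx1 stood apart after x-rays through replicate 1, the lowest at 14.57, Txnrd1 in the controls through replicate 3, the lowest at 4.35, and the second Hmox1 probe after neutron alone through replicate 1, the lowest at 1.80.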

How the results depend on the processing

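Against the controls 7, 6, 7, 7 and 6 of the 10 genes were called from x-rays to neutron alone. With spike-in centring, where 9 of the 10 were tested, the counts were 3, 1, 1, 3 and 5. Of these, Gclc was lower after x-rays, and after neutron alone Cat was higher and Gclc, Hmox1, Sod1 and Txnrd1 were lower. Of all 17089 genes tested with this centring, 7285, 8624, 7494, 4728 and 13640 were called, and 13559 of the last were lower. For the 10 genes the counts were, with normexp, 0, 0, 3, 0 and 0, and in the deposited log2 table, where Gpx1 and Prdx2 were not among the genes tested, 4, 3, 4, 4 and 3. Shares of all genes called are not given for these and the following settings, so their counts show only the dependence on the setting. With the slide or the scan session as a block, which leaves 1 shared array per group, the counts at 5 and 15% were 0. Neutron alone against x-rays, 3 genes, gave 0 with normexp, 1 with the replicate block, and 5 with array weights and with the adjusted p alone. Neutron alone against 25%, 2 genes, gave 4 with spike-in centring and with array weights, and 0 with normexp, the slide block and the hepatocyte covariate. The replicate block gave 6, 6, 7, 5 and 6 against the controls and 2 for neutron alone against 25%. Leaving out 1 array gave 7 to 7, 6 to 7, 7 to 8, 5 to 7 and 6 to 7 genes against the controls, 0 to 0 for each mixed field against x-rays, and 2 to 4 for neutron alone against x-rays and against 25%. Directions turned with normexp at 5% for Gclm (-0.18), Prdx2 (-0.58), Sod1 (-0.25) and Sod2 (-0.18) and after neutron alone for Prdx2 (-0.56) and Sod2 (-0.53), and with spike-in centring after neutron alone for Hmox1 (-1.07), Nqo1 (-0.34), Prdx2 (-0.71), Sod1 (-1.61), Sod2 (-0.74) and Txnrd1 (-1.70). None of these normexp values was called, nor were the spike-in values of Nqo1, Prdx2 and Sod2. The cause of the turns was not tested. Sign changes of values called under neither setting were not counted as turns. The share of all calls that were higher was 43.3, 39.2, 43.2, 43.9 and 44.0%, and 62.6, 48.5, 53.7, 51.2 and 62.2% with 75th percentile scaling. The probes of the 10 genes were above background on all 36 arrays, and Gpx1 was saturated on 3.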
